A study of Mus musculus with 6 samples.

Results

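The 10 genes described here encode antimicrobial lectins and other secreted defence proteins of the gut epithelium. They are Reg3b, Reg3g, Reg3a, Reg1, Lypd8, Pglyrp1, Sprr2a3, Retnlb, Saa1 and Lcn2, and they were found by gene symbol among the 55298 Ensembl genes of the deposited count table. All 10 were present, and 9 of them were among the 15143 genes that passed the filter on low counts, while Lcn2 did not. The values come from RNA sequencing of epithelial cells taken from the small bowel of mice with collagen-induced arthritis, a model in which immunization with collagen brings on inflammation of the joints. The labels call 3 libraries HIF2α +/- ΔIEC, which the series describes as a knockout restricted to the intestine, and 3 libraries HIF2α +/- F/F littermate controls, with arthritis induced in both groups. The labels do not explain the "+/-", name no Cre driver, and give no age and no gut segment. Whether each library is a mouse of its own is not said either, so each p-value measures the spread between these libraries, which may be technical.

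These proteins act where the epithelium meets the microbiota. The Reg3 proteins are C-type lectins released into the lumen. REG3γ and REG3β bind bacterial cell walls and membranes and help to keep bacteria at a distance from the mucosa, and their transcription is known to respond to IL-22 through STAT3 and to microbial signals through MyD88. The other proteins work by different routes. RELMβ, encoded by Retnlb, and SPRR2A kill bacteria by damaging their membranes, LYPD8 binds flagella, PGLYRP1 recognizes peptidoglycan, lipocalin 2 captures iron-carrying siderophores, and SAA1 is a retinol-binding acute-phase protein.

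The targeted gene was examined first. Epas1, which encodes HIF2α, had 44.2, 25.9 and 31.9 CPM (read counts put on a common library size with the trimmed mean of M-values, TMM) in the libraries labelled ΔIEC, against 12.2, 19.4 and 17.5 CPM in those labelled F/F. It was therefore higher, not lower, in the libraries labelled as knockout, with a log2 fold change of 1.06 ± 0.28 (SE, edgeR quasi-likelihood test, adjusted p = 0.0061). Without ΔIEC library 1 and F/F library 2 it was 0.96 (edgeR adjusted p = 0.059). Counts over a whole gene also include transcripts that lack a deleted exon, so this value does not measure the deletion itself. Because the gene goes against the label, the groups are called the libraries labelled ΔIEC and the libraries labelled F/F, and every direction below rests on those labels. Total counts ranged from 28937122 to 38454620 per library. Read counts followed the GC content of the transcripts in opposite directions in the 2 groups, with slopes of -0.89 to -0.64 log2 units per 10 percentage points of GC in the libraries labelled ΔIEC, against 0.44 to 0.96 in those labelled F/F. Fold changes are for that reason given from 2 fits, as counted and after correction of each library for transcript GC content and length. Markers of 1 other tissue set 2 libraries apart, because the summed level of 8 pancreatic acinar genes was 35.2 CPM in ΔIEC library 1 and 16.5 CPM in F/F library 2, and at most 0.277 CPM in the other 4. No 2 libraries of a group agreed within sampling noise.

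The start sites of 4 genes are printed here. Reg3b and Reg3g are shown because both were, as counted, highest in ΔIEC library 2 and lowest in ΔIEC library 1. Sprr2a3 and Pglyrp1 are shown because they fell as counted and hold motif matches. RefSeq promoters of GRCm38.p6 cover 250 bases before and 50 bases after each start, and 9 of the 10 members had an entry, Retnlb being the other. Reg3b lies at chr6:78370635-78370934 on the plus strand and Reg3g at chr6:78468825-78469124 on the minus strand. The capitals mark the longest run of letters common to both, 29 bases that begin 20 bases before each start.
Reg3b: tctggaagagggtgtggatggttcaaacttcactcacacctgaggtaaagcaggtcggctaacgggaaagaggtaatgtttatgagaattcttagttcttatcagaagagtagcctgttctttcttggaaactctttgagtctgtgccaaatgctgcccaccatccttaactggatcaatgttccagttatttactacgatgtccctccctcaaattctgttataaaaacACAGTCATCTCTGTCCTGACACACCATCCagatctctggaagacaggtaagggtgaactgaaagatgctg
Reg3g: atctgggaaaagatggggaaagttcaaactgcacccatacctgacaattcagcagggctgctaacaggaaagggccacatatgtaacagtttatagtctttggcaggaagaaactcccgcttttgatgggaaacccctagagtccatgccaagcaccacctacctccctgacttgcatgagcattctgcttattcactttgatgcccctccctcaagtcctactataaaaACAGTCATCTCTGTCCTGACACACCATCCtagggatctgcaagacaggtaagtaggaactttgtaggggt
Aligned end to end, the Reg3b and Reg3g windows were 68.1% identical, against 46.7% to 54.7% for the other pairs among Reg1, Reg3a, Reg3b and Reg3g. The Sprr2a3 window is chr3:92285054-92285353 on the plus strand, and its capitals mark a STAT-type match, TTCNNNGAA, at 249 bases before the start. The Pglyrp1 window is chr7:18884440-18884739 on the plus strand, and its capitals mark a match to the NF-kB consensus at 93 bases before the start and a HIF core match, ACGTG or GCGTG, at 26 bases after it.
Sprr2a3: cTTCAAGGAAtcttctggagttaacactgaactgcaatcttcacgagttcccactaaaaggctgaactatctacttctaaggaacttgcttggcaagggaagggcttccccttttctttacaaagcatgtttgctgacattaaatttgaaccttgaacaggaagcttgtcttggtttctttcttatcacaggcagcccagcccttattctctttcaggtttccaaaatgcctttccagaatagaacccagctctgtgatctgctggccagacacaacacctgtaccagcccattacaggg
Pglyrp1: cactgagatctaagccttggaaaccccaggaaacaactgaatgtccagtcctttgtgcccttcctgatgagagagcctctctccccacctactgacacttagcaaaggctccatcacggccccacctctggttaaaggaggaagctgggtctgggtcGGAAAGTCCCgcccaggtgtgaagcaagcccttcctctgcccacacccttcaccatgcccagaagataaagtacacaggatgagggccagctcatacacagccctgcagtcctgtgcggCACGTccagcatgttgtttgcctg
All 3 motifs were searched on both strands, and none of the matches overlap. Reg3b also held a STAT-type match, at 129 bases before its start. The STAT letters occurred in 8.47% of the 27025 promoters of the table, the HIF core in 43.8% and the NF-kB consensus in 0.385%, and among the members with an entry only Pglyrp1 held a HIF core match. Such a match describes letters in a window and is not evidence of binding.

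Of the 9 tested genes, none rose in the libraries labelled ΔIEC in either fit, and Retnlb and Sprr2a3 fell in both. As counted, 3 of 9 fell (Retnlb, Pglyrp1 and Sprr2a3) and 6 did not pass the test, where 66.9% of all 15143 genes were called, 37.2% higher and 29.7% lower. After correction, 4 of 9 fell (Reg3a, Retnlb, Lypd8 and Sprr2a3) and 5 did not pass, where 29.9% of 15135 genes were called, 14.3% higher and 15.6% lower. The count of 0 higher also held at an unadjusted p below 0.05 in edgeR and with DESeq2, in both fits. The median log2 fold change of the 9 genes was -0.51 as counted, beside 0.15 over all genes, and -0.93 after correction, beside -0.02 over all genes. Levels in the libraries labelled ΔIEC lay wholly below those labelled F/F for 3 members as counted, Retnlb, Pglyrp1 and Sprr2a3. After correction this held for 4 members, these 3 and Reg3a. Lypd8, though called, then overlapped, with 2514 CPM in ΔIEC library 2 and 2414 CPM in F/F library 3. Of all genes, 72.6% had groups that did not overlap as counted, and 47.9% after correction. With ΔIEC library 1 and F/F library 2 both left out, a choice made after seeing the data, Retnlb and Sprr2a3 were the only members still called after correction. In bulk RNA of this kind, fewer cells of a type and less RNA per cell cannot be told apart.

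**Figure D1:**
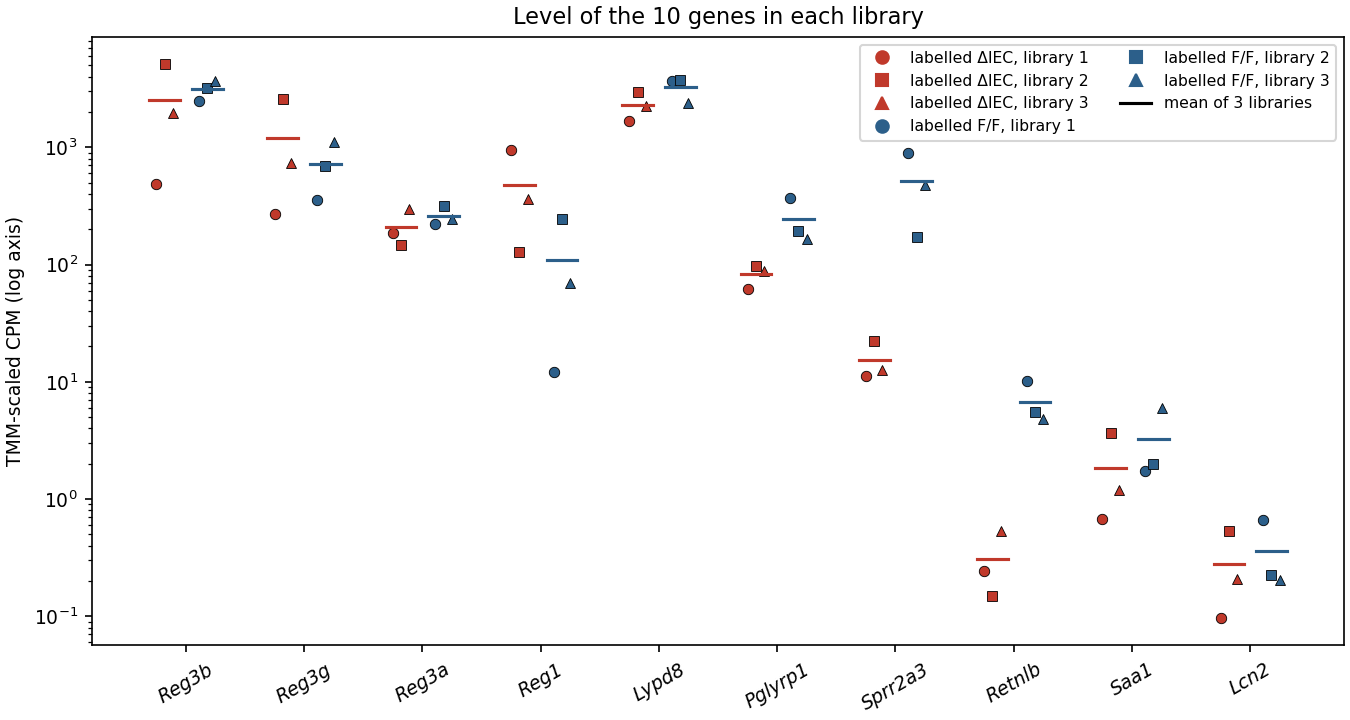
TMM-scaled CPM of the 10 genes in each library on a log axis, with the libraries labelled ΔIEC in red to the left of those labelled F/F in blue for each gene, symbols for library 1, 2 and 3, and a bar at the mean of 3 libraries. The groups are apart for Pglyrp1, Sprr2a3 and Retnlb and overlap for the other 7 genes, among which Reg1 spans 943 CPM in ΔIEC library 1 and 12.0 CPM in F/F library 1.

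Sprr2a3 showed the largest change among the members. Sprr2a proteins of the mouse gut are small proline-rich proteins released into the lumen, where they act on Gram-positive bacteria. The gene (ENSMUSG00000074445.4, chr3:92285417-92291405, plus strand) had 466, 754 and 426 reads in the libraries labelled ΔIEC, against 26024, 5333 and 16400 reads in those labelled F/F. This corresponds to 11.3, 22.3 and 12.6 CPM under the ΔIEC label, against 901, 172 and 477 CPM under the F/F label, and the groups were well separated although the F/F libraries themselves differed 5.25-fold. The log2 fold change was -5.07 ± 0.64 (SE, edgeR, adjusted p = 0.00038), a 33.5-fold lower level, and -6.48 ± 0.69 after correction (adjusted p = 0.0014). It was called in every fit that left out 1 library, with a range of -5.57 to -4.37 as counted and -6.90 to -5.64 after correction. Sprr2a1 and Sprr2a2 are near-identical copies, and 61.1% of the 50-base windows of Sprr2a3 transcripts also occur in other genes, chiefly Sprr2a1, Sprr2a2 and Sprr2b, so the split of reads among them is uncertain. Summing all 3 Sprr2a loci sets aside the split of counted reads, but does not restore reads left out because they map to several places. The sum was 11.8, 24.0 and 13.2 CPM in the libraries labelled ΔIEC, against 901, 172 and 478 CPM in those labelled F/F. Sprr2a3 itself held 92.9% to 95.9% of those counted reads in the libraries labelled ΔIEC and 99.7% to 99.96% in those labelled F/F. Of the 50-base windows of Sprr2a1 and Sprr2a2, 96.3% and 96.5% also occur in other genes. How reads that map to several places were treated is not given, so these shares do not show which locus was most expressed.

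Retnlb fell as well, at a much lower level of expression. RELMβ is a product of goblet cells and is known to rise under type 2 cytokines and bacterial colonization. The gene (ENSMUSG00000022650.7, chr16:48816856-48818892, plus strand) had 10, 5 and 18 reads in the libraries labelled ΔIEC, against 291, 170 and 164 reads in those labelled F/F. Its level was 0.243, 0.148 and 0.534 CPM under the ΔIEC label, against 10.1, 5.48 and 4.77 CPM under the F/F label, so the groups did not overlap, and the log2 fold change was -4.45 ± 0.52 (SE, edgeR, adjusted p = 0.00019). After correction it was -5.59 ± 0.61 (adjusted p = 0.0012), a 48.2-fold lower level, and no single library decided the call, with -5.08 to -4.02 as counted and -6.30 to -5.10 after correction when each was left out. The goblet cell markers Muc2, Tff3, Clca1, Fcgbp, Spdef and Agr2 summed to 10365, 15245 and 11398 CPM in the libraries labelled ΔIEC, against 13501, 17950 and 12158 CPM in those labelled F/F. As counted, Clca1 and Agr2 rose and Tff3 and Spdef fell, and after correction none of these 6 goblet genes passed the test in edgeR. The part of goblet cell number in the Retnlb result was not tested.

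Pglyrp1 fell as counted, and after correction its call depended on the tool and the filter. The gene (ENSMUSG00000030413.7, chr7:18871331-18890459, plus strand) encodes a peptidoglycan recognition protein that neutrophils also store in granules. It had 62.2, 97.7 and 88.2 CPM in the libraries labelled ΔIEC, against 371, 194 and 166 CPM in those labelled F/F, so every ΔIEC library lay below every F/F library. The log2 fold change was -1.56 ± 0.32 (SE, edgeR, adjusted p = 0.0014) as counted and -0.79 ± 0.29 after correction (adjusted p = 0.065). With the same correction DESeq2 called it lower (-0.79, adjusted p = 0.034), as did edgeR without a filter on low counts (-0.98, adjusted p = 7.4e-05). Pglyrp1 has the most GC-rich transcripts of the members, at 54.4%, and genes within 1 percentage point of that GC content had a median log2 fold change of -0.71 as counted. Corrected for GC content alone its log2 fold change was -0.98 (adjusted p = 0.034). Neutrophil markers were near zero throughout, with a sum over 9 genes of 0.267 to 1.16 CPM in the libraries labelled ΔIEC and 0.320 to 1.73 CPM in those labelled F/F, and Ly6g, Mpo and Elane had no read in any library.

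Lypd8 was among the most abundant members, and its call depended on the correction. LYPD8 is a GPI-anchored protein of enterocytes that is shed into the lumen. The gene (ENSMUSG00000013643.13, chr11:58379043-58390728, plus strand) had 1669, 2976 and 2231 CPM in the libraries labelled ΔIEC, against 3697, 3744 and 2373 CPM in those labelled F/F, and F/F library 3 lay within the ΔIEC range. The log2 fold change was -0.51 ± 0.28 (SE, edgeR, adjusted p = 0.13) as counted and -1.06 ± 0.32 after correction (adjusted p = 0.034). The corrected call was lost without ΔIEC library 1 (-0.87, adjusted p = 0.11), ΔIEC library 3 (-1.06, adjusted p = 0.071), F/F library 1 (-0.86, adjusted p = 0.10) or F/F library 2 (-0.98, adjusted p = 0.10). It was also lost with GC content and length from the longest transcript (-0.59, adjusted p = 0.18). Without F/F library 3 the gene also passed as counted (-0.76, adjusted p = 0.043). The 8 enterocyte markers summed to 11096, 13399 and 12727 CPM in the libraries labelled ΔIEC, against 30200.5, 20356 and 21092 CPM in those labelled F/F, a difference that lay mostly in Apoa1, with means of 3765 CPM in the libraries labelled ΔIEC and 15274 CPM in those labelled F/F. As counted 3 of the 8 rose (Sis, Fabp1 and Krt20) and 2 fell (Apoa1 and Alpi), with a median log2 fold change of 0.14, and after correction 0 rose and 3 fell (Sis, Lct and Apoa1), with a median of -0.55. Their part in the Lypd8 result was not tested.

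**Figure D2:**
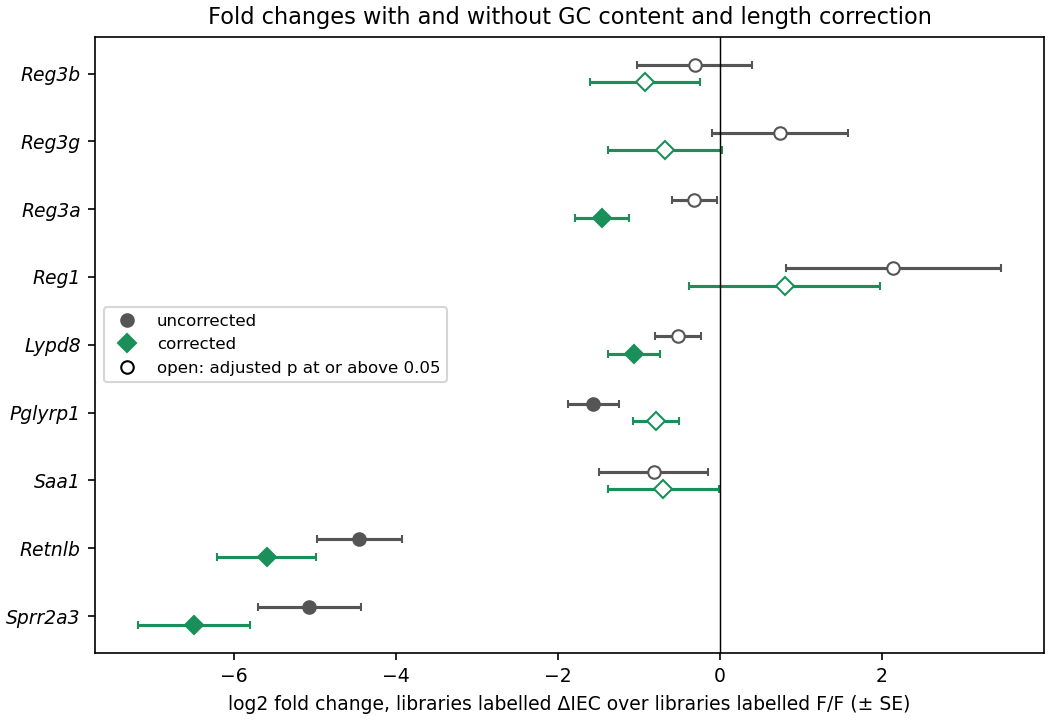
Log2 fold changes of the 9 tested genes, libraries labelled ΔIEC over libraries labelled F/F, with standard errors, as counted (circles) and after GC content and length correction (diamonds). Filled symbols had an adjusted p below 0.05, and only Retnlb and Sprr2a3 are filled in both fits, at -4.45 and -5.07 as counted.

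Among the 4 member lectin genes of the Reg cluster on chromosome 6, only Reg3a was called with all libraries, and only after correction. The cluster also holds Reg2 and Reg3d. Corrected estimates were negative for Reg3a, Reg3b and Reg3g, and positive for Reg1. Reg3b (ENSMUSG00000071356.7, chr6:78370657-78373466, plus strand) had 484, 5088 and 1978 CPM in the libraries labelled ΔIEC, against 2476, 3208 and 3683 CPM in those labelled F/F. As counted, the libraries labelled ΔIEC held both the highest and the lowest value, and spread 10.5-fold where those labelled F/F spread 1.49-fold. After correction the highest value was 4129 CPM in F/F library 2, against 4030 CPM in ΔIEC library 2, and ΔIEC library 1 stayed lowest. The log2 fold change was -0.31 ± 0.71 (SE, edgeR, adjusted p = 0.72) as counted and -0.93 ± 0.68 after correction (adjusted p = 0.34). Without ΔIEC library 1 the uncorrected estimate was 0.19, so its sign rests on that library.

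Reg3g, the partner lectin of Reg3b, followed the same libraries. The gene (ENSMUSG00000030017.2, chr6:78466269-78468872, minus strand) had 268, 2597 and 734 CPM in the libraries labelled ΔIEC, against 353, 694 and 1104 CPM in those labelled F/F. As counted, ΔIEC library 2 was again the highest and ΔIEC library 1 the lowest of all 6. After correction F/F library 3 was highest, at 1489 CPM against 1449 CPM in ΔIEC library 2, and ΔIEC library 1 stayed lowest. The log2 fold change was 0.74 ± 0.84 (SE, edgeR, adjusted p = 0.46) as counted and -0.67 ± 0.70 after correction (adjusted p = 0.50), and as counted it was -0.51 without ΔIEC library 2. Genes within 1 percentage point of its GC content of 44.6% had a median log2 fold change of 1.68 as counted.

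The balance of the lectin pair differed between the labels as counted and overlapped after correction. The ratio of Reg3b to Reg3g reads was 1.81, 1.96 and 2.69 in the libraries labelled ΔIEC, against 7.02, 4.62 and 3.34 in those labelled F/F, and the groups did not overlap. From corrected levels it was 2.37, 2.78 and 3.24 in the libraries labelled ΔIEC, against 5.84, 3.22 and 2.57 in those labelled F/F, and the groups overlapped. With 3 libraries a group an exact two-sided permutation test cannot give a p below 0.10. The transcripts differ in GC content (48.7% for Reg3b and 44.6% for Reg3g), and the groups differ in GC slope. Their median lengths differ too, at 552 bases for Reg3b and 1430 bases for Reg3g. The part of GC content or length in the ratio was not tested. After correction the log2 fold changes of the pair were close, at -0.93 for Reg3b and -0.67 for Reg3g. The genes whose corrected level most resembled that of Reg3g over the 6 libraries, among 11093 candidates outside the members, were Creld1, C2, Bag3, Fgf11 and Panx1, with Pearson r of 0.977, 0.964, 0.962, 0.961 and 0.957 on log2 CPM. These are the highest of many correlations over 6 libraries that share 2 groups, and are given as a description.

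Reg3a fell only after correction. The gene (ENSMUSG00000079516.2, chr6:78380709-78383827, plus strand) encodes a Reg3 lectin of lower abundance, and had 186, 146 and 297 CPM in the libraries labelled ΔIEC, against 220.3, 316 and 242 CPM in those labelled F/F. The groups overlapped, and the log2 fold change was -0.31 ± 0.28 (SE, edgeR, adjusted p = 0.33). On the corrected scale the levels were 121, 94.4 and 215 CPM in the libraries labelled ΔIEC, against 362, 522 and 293 CPM in those labelled F/F, with no overlap and a log2 fold change of -1.45 ± 0.33 (adjusted p = 0.013). That call was lost without ΔIEC library 1 (-1.33, adjusted p = 0.057) and when GC content and length were taken from the longest transcript (-0.90, adjusted p = 0.059).

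Reg1 had the widest spread of the members within the F/F label. REG1 is a lectin-related protein that the exocrine pancreas makes in quantity and that the gut epithelium also expresses. The gene (ENSMUSG00000059654.7, chr6:78422711-78428667, plus strand) had 943, 128 and 363 CPM in the libraries labelled ΔIEC, against 12.0, 244 and 69.3 CPM in those labelled F/F. The span was 78.5-fold over the 6 libraries, 7.37-fold within the ΔIEC label and 20.3-fold within the F/F label, and the groups overlapped. The log2 fold change was 2.14 ± 1.33 (SE, edgeR, adjusted p = 0.21) as counted and 0.80 ± 1.18 after correction (adjusted p = 0.65). Leaving out F/F library 2 brought the uncorrected estimate to 3.59 (adjusted p = 0.013), and leaving out ΔIEC library 1 brought the corrected estimate to -0.064. In each group the library with the highest Reg1 was the one with pancreatic acinar transcripts, ΔIEC library 1 and F/F library 2. The same 2 libraries had the most Pdx1, a transcription factor of the pancreas and duodenum, with 17.2, 3.78 and 3.94 CPM in the libraries labelled ΔIEC, against 0.45, 30.3 and 1.8 CPM in those labelled F/F. Pdx1 belongs to a list of 5 proximal small intestine markers, which did not follow it. Their sum was 304, 219 and 245 CPM in the libraries labelled ΔIEC, against 490, 501 and 349 CPM in those labelled F/F. F/F library 1, lowest in Pdx1, was thus close to F/F library 2 in that sum. ΔIEC library 3 had 363 CPM of Reg1 beside an acinar sum of 0.0593 CPM, and the part of pancreatic RNA or of gut segment in the Reg1 levels was not tested.

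**Figure D3:**
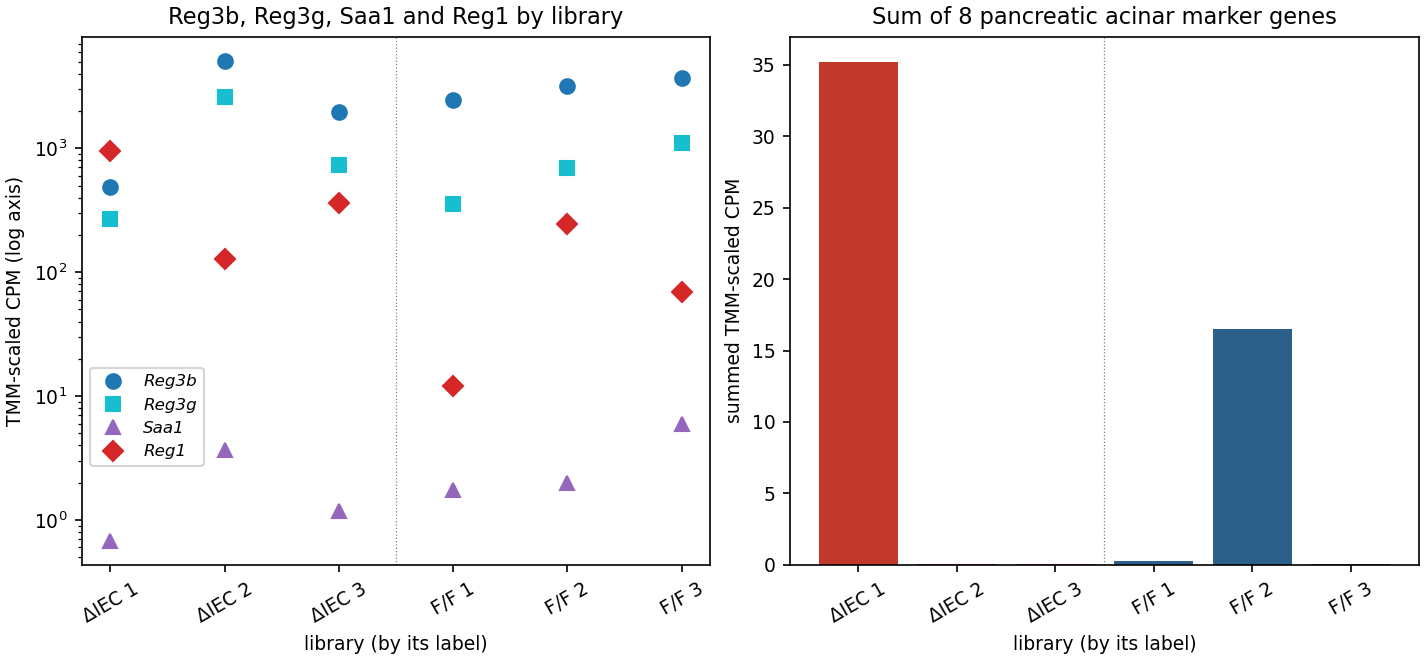
Left, TMM-scaled CPM of Reg3b, Reg3g, Saa1 and Reg1 in the 3 libraries labelled ΔIEC and then the 3 labelled F/F, on a log axis; right, the summed CPM of 8 pancreatic acinar marker genes in the same libraries. ΔIEC library 1 is lowest for Reg3b, Reg3g and Saa1 and highest for Reg1 and for the acinar sum, which is 35.2 CPM there and 16.5 CPM in F/F library 2.

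ΔIEC library 1 stood low for most of the set. It had the lowest level of all 6 libraries for Reg3b, Reg3g, Lypd8, Pglyrp1, Sprr2a3, Saa1 and Lcn2, and the highest for Reg1. The 10 genes together summed to 3624, 11059 and 5706 CPM in the libraries labelled ΔIEC, against 8043, 8581 and 8126 CPM in those labelled F/F. Their composition varied as well, since Reg3b and Reg3g made up 20.7%, 69.5% and 47.5% of that sum in the libraries labelled ΔIEC, against 35.2%, 45.5% and 58.9% in those labelled F/F. Paneth cell markers, 6 genes that crypt-base secretory cells express, summed to 16566, 7943 and 32774 CPM in the libraries labelled ΔIEC, against 23562, 20145 and 20839 CPM in those labelled F/F. This order of libraries was not that of Reg3b or Reg3g. The 4 ileum markers summed to 489, 1431 and 919 CPM in the libraries labelled ΔIEC, against 2122, 1408 and 1920 CPM in those labelled F/F. As for Reg3b, ΔIEC library 1 was lowest and ΔIEC library 3 next, but F/F library 1 was highest. The part of Paneth cells or of gut segment in the levels of Reg3b and Reg3g was not tested.

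Saa1 and Lcn2, defence genes best known from acute inflammation, were barely expressed. Saa1 (ENSMUSG00000074115.5, chr7:46740497-46742980, minus strand) had 28, 124 and 40 reads in the libraries labelled ΔIEC, against 50, 62 and 205 reads in those labelled F/F. Its level was 0.679, 3.66 and 1.19 CPM under the ΔIEC label, against 1.73, 2.0 and 5.96 CPM under the F/F label, and the groups overlapped, with a log2 fold change of -0.82 ± 0.68 (SE, edgeR, adjusted p = 0.31) as counted and -0.70 ± 0.69 after correction (adjusted p = 0.47). It passed as counted without ΔIEC library 2 (-1.80, adjusted p = 0.023), and the corrected estimate was 0.067 without F/F library 3. Saa1 shares 31.5% of its 50-base windows with other genes, namely Saa2 and Saa3, so part of its reads may be theirs. Lcn2 (ENSMUSG00000026822.14, chr2:32384633-32388252, minus strand) had 4, 18 and 7 reads in the libraries labelled ΔIEC, against 19, 7 and 7 reads in those labelled F/F, too few to pass the filter, and its groups overlapped. No difference in Lcn2 was detectable at this depth.

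**Figure D4:**
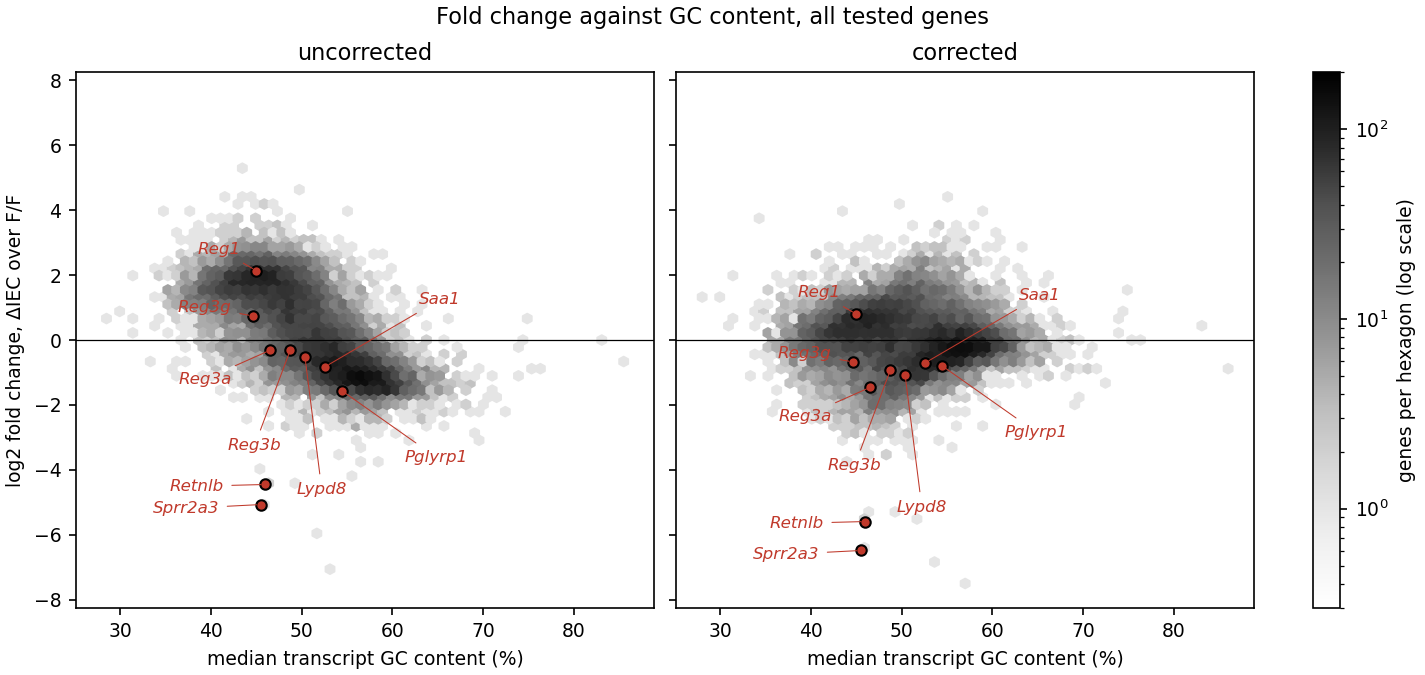
Log2 fold change of all tested genes (hexagons shaded by the number of genes, log scale), libraries labelled ΔIEC over libraries labelled F/F, against median transcript GC content in percent, as counted on the left and corrected on the right, with the 9 tested members in red. Retnlb and Sprr2a3 lie far below genes of like GC content on both sides, and Pglyrp1 lies nearer to the median of -0.71 of its GC neighbours on the left.

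Compared with genes of like GC content, the estimates of the tested members other than Reg1 were lower as counted. Genes within 1 percentage point of GC content had a median log2 fold change of 1.67 for Reg1, 1.54 for Reg3a, 0.98 for Reg3b, 1.61 for Retnlb, 1.63 for Sprr2a3, 0.48 for Lypd8 and -0.29 for Saa1, from 1336 to 1767 genes each. The members' own estimates were below that median except for Reg1, at 2.14. These are estimates without regard to their error, and Saa1 for instance was at -0.82 ± 0.68 (SE). Reg3b, Reg3g, Saa1 and Pglyrp1 did not pass in edgeR after correction. The fitted trend that the correction took out, as the ΔIEC group minus the F/F group in log2 units, was 1.41 for Reg3g, 1.38 for Sprr2a3 and 1.25 for Reg1, which lowered their estimates. It was -0.11 for Saa1, which changed little, and -0.75 for Pglyrp1, whose estimate moved up.

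Per kilobase of transcript, the level of the members spanned 4 orders of magnitude in both groups. On the scale of CPM per kilobase of median transcript length, Reg3b came first, with 4559 ± 4255 in the libraries labelled ΔIEC and 5656 ± 1101 in those labelled F/F (SD, n = 3 each). Lypd8 followed with 1983 ± 567 under the ΔIEC label and 2830.0 ± 673 under the F/F label. Reg3g had 839 ± 862 under the ΔIEC label and 501 ± 263 under the F/F label, and Reg1 had 622 ± 546 under the ΔIEC label and 141 ± 157 under the F/F label. Reg3a had 254 ± 94.9 in the libraries labelled ΔIEC and 315 ± 61.0 in those labelled F/F, and Pglyrp1 had 129 ± 28.7 under the ΔIEC label and 381 ± 173 under the F/F label. Sprr2a3 had 8.65 ± 3.36 in the libraries labelled ΔIEC and 290.1 ± 206 in those labelled F/F, near Reg3a and Pglyrp1 under the F/F label and far below both under the ΔIEC label. By its mean, Reg1 lay above Reg3a and Pglyrp1 under the ΔIEC label and below both under the F/F label. Not every library kept this order. In ΔIEC library 2 Reg1 was at 166 and Reg3a at 176, and in F/F library 2 Reg1 was at 318 and Pglyrp1 at 304. Retnlb, Saa1 and Lcn2 were lowest, with 0.443, 1.21 and 0.321 in the libraries labelled ΔIEC and 9.73, 2.12 and 0.418 in those labelled F/F. Under the ΔIEC label the SDs of Reg3b, Reg3g and Reg1 were nearly as large as their means or larger, so these genes and Lypd8 have no firm order among themselves there.

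The counts over the lists that follow stand beside a share of 66.9% of all genes called as counted and 29.9% after correction. Of 27 other genes listed from the Reg, resistin-like, Lypd8, Saa, Pglyrp and Sprr families, 26 were found, all but Lypd8l. Of these, 6 were tested and 10 had no read in any library. As counted, Reg3d rose (0.731 ± 0.0621 CPM in the libraries labelled ΔIEC and 0.165 ± 0.0849 CPM in those labelled F/F, SD, n = 3 each, log2 fold change 2.10 ± 0.48 SE, edgeR adjusted p = 0.0024). Sprr1a, a cornified-envelope gene, fell (2.40 ± 0.111 CPM in the libraries labelled ΔIEC and 8.59 ± 4.32 CPM in those labelled F/F, log2 fold change -1.84 ± 0.40 SE, edgeR adjusted p = 0.0020). Neither passed after correction, at 1.07 (adjusted p = 0.079) and -1.04 (adjusted p = 0.082). Reg4, a lectin of enteroendocrine and goblet lineages, had 224, 93.2 and 186 CPM in the libraries labelled ΔIEC, against 128, 97.1 and 170.3 CPM in those labelled F/F, and did not pass. Pglyrp2, Sprr2a1 and Sprr2a2 did not pass either. Sprr2b, a small proline-rich gene near Sprr2a3, was too low to be tested, with 2, 1 and 0 reads in the libraries labelled ΔIEC, against 16, 5 and 14 reads in those labelled F/F, and these groups did not overlap. The median log2 fold change of the 6 was 0.44 as counted and -0.67 after correction.

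Among 16 other secreted defence genes, 12 were tested, and 2 rose and 1 fell as counted, against 1 rise and 1 fall after correction. Their median was -0.25 in both fits. Dmbt1, a scavenger-receptor glycoprotein of mucus that binds bacteria, was the only one called in the same direction in both. It averaged 2242 ± 501 CPM in the libraries labelled ΔIEC and 616 ± 216 CPM in those labelled F/F (SD, n = 3 each), with a log2 fold change of 1.86 ± 0.30 (SE, edgeR, adjusted p = 0.00042) as counted and 1.42 ± 0.25 after correction (adjusted p = 0.0040), opposite in sign to Sprr2a3 and Retnlb.

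The IL-22 receptor and STAT3 list held 15 genes, of which 12 were tested. As counted 3 rose and 5 fell (median -0.29), while the corrected fit called 2 higher and 2 lower (median 0.05). Jak1, a kinase of the IL-22 receptor, averaged 91.6 ± 34.6 CPM in the libraries labelled ΔIEC and 17.5 ± 3.51 CPM in those labelled F/F (SD, n = 3 each), with log2 fold changes of 2.39 as counted and 2.50 ± 0.33 (SE) after correction (edgeR adjusted p = 0.0016). Il6st, the gp130 subunit shared by IL-6-type receptors, averaged 23.8 ± 4.17 CPM in the libraries labelled ΔIEC and 5.48 ± 0.918 CPM in those labelled F/F, and its corrected log2 fold change was 0.97 (edgeR adjusted p = 0.017). Pim1, a kinase gene that STAT3 is known to induce, averaged 73.3 ± 8.73 CPM in the libraries labelled ΔIEC and 138 ± 18 CPM in those labelled F/F, with a corrected log2 fold change of -0.55 (edgeR adjusted p = 0.035). The corrected call of Il6st was lost without ΔIEC library 1 (0.89) or F/F library 2 (0.85), and that of Pim1 without ΔIEC library 1 or 2 or F/F library 1 or 2 (-0.58 to -0.46). Over all alternatives run, the corrected estimate of Pim1 ranged from -0.63 to -0.072. The receptor gene Il10rb went the other way from Jak1 and Il6st after correction. Its corrected level was 54.6 ± 10.3 CPM in the libraries labelled ΔIEC and 109 ± 11.2 CPM in those labelled F/F (edgeR adjusted p = 0.0054). As counted Il10rb did not pass (log2 fold change -0.24). The receptor gene Il22ra1 and Stat3 passed in neither fit, with corrected log2 fold changes of 0.23 and 0.10.

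Sensors of microbes and the MyD88 and NF-kB route gave calls in both directions. Of 24 listed genes 22 were tested, with 10 that rose and 7 that fell as counted (median 0.46) and, in the corrected fit, 6 that rose and 3 that fell (median 0.32). Nfkbiz, which encodes the nuclear regulator IκBζ of the NF-kB pathway, averaged 69.4 ± 18.2 CPM in the libraries labelled ΔIEC and 10.9 ± 2.42 CPM in those labelled F/F (SD, n = 3 each), and its log2 fold change was 2.67 as counted and 1.61 ± 0.21 (SE) after correction (edgeR adjusted p = 0.0016). Ikbkb, a kinase that releases NF-kB, averaged 78.7 ± 12.7 CPM in the libraries labelled ΔIEC and 20.9 ± 7.17 CPM in those labelled F/F, at 1.63 after correction (edgeR adjusted p = 0.0021). Myd88, the adaptor itself, was lower, averaging 41.7 ± 2.08 CPM in the libraries labelled ΔIEC and 97.8 ± 23.4 CPM in those labelled F/F, at -0.93 after correction (edgeR adjusted p = 0.0094); it was named after its values were seen. Ticam1, the adaptor of TLR3, averaged 72.4 ± 13.8 CPM in the libraries labelled ΔIEC and 224 ± 61.9 CPM in those labelled F/F, at -1.01 after correction (edgeR adjusted p = 0.0064). Tlr1 (0.92, adjusted p = 0.046), the ubiquitin ligase gene Traf6 (0.61, adjusted p = 0.042) and the NF-kB subunit gene Relb (-0.69, adjusted p = 0.040) were called after correction by edgeR with little margin. The call of Traf6 was lost without any 1 of the 6 libraries (0.51 to 0.68), that of Relb without any but F/F library 2 (-0.79 to -0.44), and that of Tlr1 without ΔIEC library 1 or 2 or F/F library 2 or 3 (0.68 to 0.99).

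The 2 remaining lists had calls in both directions as counted. For type 2 cytokine signalling, which is known to induce Retnlb, all 8 genes were tested, 2 rose and 2 fell as counted (median -0.27), while the corrected fit called 0 higher and 1 lower (median -0.29). DESeq2 likewise called 0 higher there after correction, while 1 was higher at an unadjusted p below 0.05 in edgeR. Of 8 nuclear receptor genes 7 were tested, 1 rose and 3 fell as counted, and 1 rose and 0 fell after correction in edgeR, where DESeq2 called 1 lower and 2 were lower at an unadjusted p below 0.05 in edgeR.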

How the data were processed

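RNA of isolated small-intestine epithelial cells was sequenced with an Illumina protocol, per the labels. Per the submitters' processing notes, the tools were Subread 1.6.1, STAR 2.6.1c, cutadapt 1.18, SAMtools 1.8 and FastQC 0.11.8, and the mouse genome was GRCm38 (mm10). The roles of these tools, strand settings and treatment of reads that map to several places are not given in the sources used here. The authors deposited raw read counts per Ensembl gene, which were the basis of every value, together with normalized signal values (counts divided by size factors) and log2 values. The counts divided by size factors served only to check the columns.

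Each library was placed in its group by its strain label, and library numbers follow accession order and only name libraries. Counts were tested with edgeR 4.0.16 (limma 3.58.1, R 4.3.3) by a robust quasi-likelihood test on all 6 libraries with TMM scaling and filterByExpr (minimum count 10, minimum total 15), and p-values were adjusted by Benjamini-Hochberg over all genes tested, with a threshold of 0.05. The corrected fit used per-library offsets from natural splines, with 6 degrees of freedom for the GC content and 5 for the log2 length of each gene's median transcript in the GENCODE annotation of GRCm38. Symbols were matched for 55009 of the 55298 gene identifiers. Both fits were tested on simulated data. The simulated trend was the one that the correction had fitted to these libraries, with levels and spread also taken from that fit. With this trend, false calls numbered 8185 as counted and 15 after correction, over 14731 genes. The low number after correction was therefore built in, and does not test whether the correction suits the real libraries. Simulated 2-fold changes were found in 57% of cases as counted and 34% after correction, and 4-fold changes in 82% and 84%. Without a trend each fit made 12 false calls. Under such a trend, calls as counted can include many genes without a change, and a gene that did not pass after correction may still differ 2-fold. DESeq2 1.42.0, other scalings and filters, the longest transcript, GC content alone and the omission of each library were the alternatives. With counts between 28937122 and 38454620 per library, low genes are limited by counting error.

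The 10 members, the pathway lists and the marker lists were chosen with earlier results of these data known. Genes named are all 10 members, Epas1, tested relatives of the members, and up to 6 genes of each list called in the same direction in both fits, by smallest p. Others, such as Myd88, Il10rb and the marker gene Pdx1, stand outside this rule. The genes most like Reg3g were the 5 of highest Pearson r with a mean of at least 2 CPM, on corrected log2 CPM with 0.1 CPM added, leaving out predicted genes. Lists are described by counts and medians, without a set test. The colon and caecum marker list is not reported here. Sequences are RefSeq promoters of GRCm38.p6.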

Additional observations from a re-analysis of the deposited data

How the results depend on the processing

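Retnlb and Sprr2a3 kept their direction and their call under every alternative run in both fits, and Pglyrp1 kept its uncorrected call under all but the GC content and length correction. No paired analysis was possible because the labels carry no replicate numbers. Total count scaling moved the median of all genes by 0.47 log2 units and DESeq2 size factors by -0.13.

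As counted, all genes gave 2162 higher and 2362 lower after GC content and length correction, 2660.0 lower with total count scaling, and 2718 lower without ΔIEC library 1 and F/F library 2. The corrected counts became 4138 higher without a filter on low counts, and 295 higher and 437 lower without those 2 libraries. Corrected members called lower were 2 with the longest transcript and 2 without those 2 libraries. The sign changed for Reg3a with total counts (0.15), for Reg3b with total counts (0.12), without ΔIEC library 1 (0.19, range -1.34 to 0.19 when each library is left out) and without both libraries (0.20), for Reg3g with the correction (-0.67) and without ΔIEC library 2 (-0.51, range -0.51 to 1.22), for corrected Reg1 without ΔIEC library 1 (-0.064, range -0.064 to 2.52) and for corrected Saa1 without F/F library 3 (0.067, range -1.68 to 0.067). The cause was not tested.

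Uncorrected list counts moved as follows. Relatives of the members had 0 higher with the stricter filter, 0 higher and 0 lower with the correction, 2 lower without a filter and 2 lower without both libraries. Other secreted defences had 1 higher with the correction, and 2, 3 and 4 lower with DESeq2 size factors, DESeq2 and no filter. IL-22 and STAT3 genes had 2 lower with total counts, with the correction and without both libraries. Microbial sensing genes had 6 higher and 3 lower with the correction. Type 2 genes had 0 higher and 1 lower with the correction and 1 lower with the stricter filter. Nuclear receptors had 3, 2 and 3 higher with total counts, DESeq2 and no filter, and 0 lower with the correction.

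Corrected list counts moved too. Without a filter they were 1 higher and 2 lower (relatives), 2 and 2 (secreted), 4 lower (IL-22), 5 lower (sensing), 2 and 3 (type 2), and 2 and 2 (nuclear receptors). With the longest transcript they were 1 higher (relatives), 0 lower (secreted), 1 lower (IL-22), 3 higher (sensing), and 0 higher with 1 lower (nuclear receptors). DESeq2 gave 1, 2, 2 and 1 lower for relatives, secreted, type 2 and nuclear receptors, GC content alone gave 3 lower for secreted, and the stricter filter gave 0 lower for type 2. Without both libraries they were 1 lower (relatives), 0 lower (secreted), 1 higher and 0 lower (IL-22), 2 higher and 0 lower (sensing), 0 lower (type 2) and 0 higher (nuclear receptors).

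Leaving out 1 library at a time gave, as counted, 4875 to 5794 genes higher and 3618 to 4745 lower, and after correction 1069 to 2025 higher and 1121 to 2290.0 lower. The members ranged over 0 to 1 higher and 3 to 4 lower as counted, and over 0 to 0 higher and 2 to 4 lower after correction. As counted the lists ranged over 1 to 1 higher and 1 to 2 lower (relatives), 2 to 3 and 1 to 4 (secreted), 2 to 4 and 4 to 5 (IL-22), 8 to 11 and 7 to 8 (sensing), 2 to 3 and 2 to 3 (type 2), and 0 to 2 and 3 to 3 (nuclear receptors). After correction they ranged over 0 to 1 and 0 to 1 (relatives), 1 to 1 and 0 to 3 (secreted), 1 to 2 and 1 to 2 (IL-22), 3 to 6 and 2 to 3 (sensing), 0 to 0 and 0 to 2 (type 2), and 0 to 2 and 0 to 1 (nuclear receptors).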
